A study of Ovis aries with 6 samples.

Results

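The 6 genes SCD, ACLY, DGAT2, LPL, PPARG and ADIG, which act in the synthesis, uptake and storage of fat, were compared in Aohan fine wool sheep, between skin of the body side and skin of the groin. They were chosen by name, and every probe carrying one of these names was taken. This gave 9 of the 15008 distinct probes on the array, on which 476 genes had a RefSeq name. SCD, LPL and ADIG had 2 probes each, and ACLY, DGAT2 and PPARG had 1 each. The DGAT2 probe and the SCD probe designed on the 3′ untranslated region took their names from the annotation published with the study. That annotation lists only probes that the study had called different, so these 2 probes were partly selected on the comparison itself.

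The sheep arrays (Agilent, one-colour, Cy3) numbered 3 for each skin area and were hybridized with labelled cRNA amplified from total RNA. Body side skin bears wool and groin skin does not. Both areas came from the same animals, 1 ram and 2 ewes aged 16 months that shared a father, as pieces of full-thickness skin of about 1 cm2. The labels do not say which arrays share an animal, so the arrays of each area were treated as 3 separate samples. The animals were reared in pens, and the labels name no treatment.

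Sebaceous glands, which open into the hair follicle and coat the fibre with grease, and adipocytes beneath the dermis both make fat from acetyl-CoA. ACLY supplies acetyl-CoA in the cytosol, SCD places a double bond in saturated fatty acids, and DGAT2 joins the last fatty acid onto diacylglycerol to give triglyceride. LPL frees fatty acids from circulating lipoproteins, PPARG is the nuclear receptor that drives the maturation of adipocytes and sebocytes, and ADIG (adipogenin) is a small membrane protein of adipocytes.

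The signal on each spot was the scanner's processed intensity, in arbitrary units, and it was quantile normalized on the log2 scale for the comparison. Detection means that a spot was marked well above background by the scanner software. Between 79.6% and 92.3% of spots were detected in groin skin and between 74.1% and 76.0% in body side skin, and the median signals were 180 to 193 and 97.5 to 130. Body side replicate 1 stood apart, because its log2 signals correlated less with the other body side arrays (Pearson r of 0.971 and 0.969 over probes) than with groin replicates 2 and 3 (0.977 and 0.977). It was also the only body side array to share a column of the slide with a groin array, groin replicate 3. For the chosen genes, and for the lipid genes below that were named through RefSeq, calls that changed without it are given both ways. No fit without it is given for other genes, such as LEP, KDR and the hair shaft and sebocyte markers. Whether their calls depend on this array is therefore not shown. The faintest detected probe on groin replicate 1 lay at 1.72 (normalized log2), against 3.26 to 4.07 on the other arrays, so faint probes were detected more readily there. A probe was called when limma gave a difference of at least 2-fold and an adjusted p under 0.05, by Benjamini-Hochberg over the 13929 tested probes. The number of arrays limits the precision.

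All 9 probes had a lower mean in body side skin than in groin skin, and 6 of them were called. The called probes were both SCD probes, ACLY, DGAT2, 1 of the LPL probes and 1 of the ADIG probes. Over all tested probes 8.4% were called in either direction, with 4.87% called lower and 3.53% called higher in body side skin. On 8 of the 9 probes, all but PPARG, every body side array lay below every groin array, as it did on 17.9% of probes with a value on all 6 arrays. Detection on all groin arrays and on no body side array occurred for 4 of the 9 probes, against 2.49% of all tested probes. The median log2 fold change of the 9 probes was −1.15, and that of all tested probes was 0.09. Of the 9 probes, 5 were detected on no body side array and passed the filter through groin arrays alone, and 2 entered through the study's list of called probes, so these counts and the median describe the probes and lend no support to a difference. In pieces of whole skin, fewer cells of a type and less RNA per cell cannot be told apart.

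**Figure D1:**
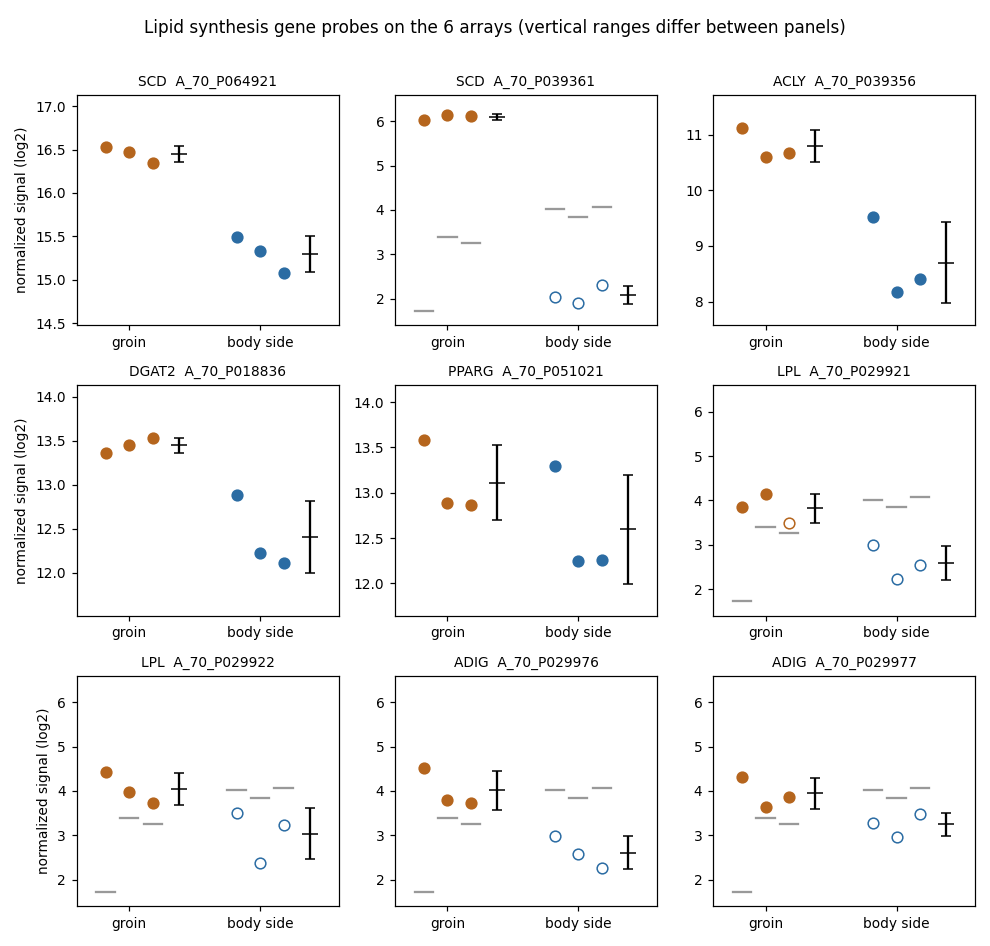
Normalized signal (log2) of the 9 probes on each of the 3 groin and 3 body side arrays, from replicate 1 to 3 within an area. Filled points were well above background and open points were not, grey ticks mark the faintest detected probe of each array, and black bars give mean and SD (n = 3). The PPARG arrays of the 2 areas overlap, and the body side points of LPL, ADIG and SCD probe A_70_P039361 are open.

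Among the enzymes that make fatty acids, both probes of SCD gave less signal in body side skin. SCD probe A_70_P039361 had processed signals of 89.1, 95.9 and 90.5 on groin replicates 1, 2 and 3. Its signals on body side replicates 1, 2 and 3 were 3.24, 2.28 and 3.59. The groin arrays lay close together and were all detected, and no body side array was well above background. Body side skin therefore has only a bound, and groin skin was at least 4.36-fold higher, with an adjusted p of 0.00126 from limma. The normalized signals were 6.10 ± 0.06 in groin skin and 2.08 ± 0.21 in body side skin (log2, SD, n = 3 each).

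The other SCD probe, A_70_P064921, lies in the 3′ untranslated region of the transcript and was bright everywhere. Its signals were 91844, 85946 and 77707 on the groin arrays. On the body side arrays they were 46534, 37191 and 35597. Each body side array was well below the lowest groin array, and all 6 were detected. The normalized signal was 16.45 ± 0.09 in groin skin and 15.30 ± 0.21 in body side skin (log2, SD, n = 3 each). The log2 fold change was −1.15 (limma standard error 0.17, 95% interval −1.55 to −0.75 and adjusted p = 0.0195), a 2.22-fold difference. The whole interval lies at smaller differences than the 4.36-fold bound of the other SCD probe, so the 2 probes disagree on size. They also differ in level, since this probe was bright in body side skin, where the other was not detected. Which size holds for SCD was not tested. A test between the 2 probes was not made.

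ACLY, which splits citrate into the acetyl-CoA used by lipid synthesis, had signals of 2411, 1749 and 1826 on the groin arrays. Its body side signals were 653, 199 and 263. Body side replicate 1 was the highest of its area and was still below every groin array. The normalized signal was 10.79 ± 0.28 in groin skin and 8.70 ± 0.72 in body side skin (log2, SD, n = 3 each), so the body side arrays were the more scattered. ACLY was 4.27-fold lower in body side skin, with a log2 fold change of −2.09 (limma standard error 0.38, 95% interval −3.02 to −1.17 and adjusted p = 0.0270). Among all tested probes, 2.06% had a lower fitted log2 fold change.

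DGAT2, which completes triglycerides, had signals of 11010, 10991 and 11440 on the groin arrays and of 6967, 4580 and 4463 on the body side arrays. The groin arrays were nearly equal, and all 3 body side arrays lay below them. The normalized signal was 13.45 ± 0.09 in groin skin and 12.40 ± 0.41 in body side skin (log2, SD, n = 3 each). The log2 fold change of −1.04 (limma standard error 0.23, 95% interval −1.61 to −0.47 and adjusted p = 0.0392) was a 2.06-fold difference, just past the fold that a call needed. Scaling each array to its 75th percentile instead of quantile normalization ended this call, with a log2 fold change of −0.70 (adjusted p = 0.0774, limma). The same scaling ended the call of the SCD 3′ untranslated region probe (−0.71, adjusted p = 0.0548, limma).

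LPL, the lipase that releases fatty acids for uptake, was faint on every array. Probe A_70_P029921 had signals of 28.3, 21.5 and 12.4 on the groin arrays, of which the last was not well above background. Its body side signals were 5.48, 2.61 and 3.90, and none was detected. The areas did not overlap, and the probe was called lower in body side skin (fitted log2 fold change −1.24, limma standard error 0.27 and adjusted p = 0.0359). The groin mean did not exceed the faintest detected signals of the body side arrays, so no fold is given for it.

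The other LPL probe, A_70_P029922, had signals of 36.2, 19.1 and 15.0 on the groin arrays, all detected. Its body side signals of 8.58, 2.91 and 6.75 were not detected on any array. The bound from the means was 1.05-fold higher in groin skin. The fitted log2 fold change of −1.01 did not pass the test (limma standard error 0.34 and adjusted p = 0.0894). Without body side replicate 1 this probe was called, at −1.23 (adjusted p = 0.0431, limma). The 2 LPL probes had the same direction on non-overlapping arrays and stood on different sides of the threshold.

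ADIG gave a similar picture of faint signals. Probe A_70_P029976 had signals of 37.9, 17.0 and 14.9 on the groin arrays, all detected, and of 5.50, 3.54 and 3.56 on the body side arrays, none detected. It was called lower in body side skin (fitted log2 fold change −1.40, limma standard error 0.30 and adjusted p = 0.0352). The bound from its means was 1.03-fold higher in groin skin. Probe A_70_P029977 had groin signals of 34.6, 15.0 and 16.5 and body side signals of 7.25, 4.77 and 8.17. Its areas did not overlap, but the fitted log2 fold change of −0.70 did not pass the test (limma standard error 0.24 and adjusted p = 0.0908). All groin arrays and no body side array detected it, and no fold is given because the groin mean lay below the faintest detected body side signals. Groin replicate 1 gave the highest processed signal on both ADIG probes and on both LPL probes. After normalization, LPL probe A_70_P029921 was higher on groin replicate 2 (4.14) than on groin replicate 1 (3.85, log2).

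PPARG, the regulator of the group, had arrays that overlapped between areas. Its signals were 13094, 7651 and 7588 in groin skin, against 9392, 4647 and 5015 in body side skin. Replicate 1 was the highest in each area, and body side replicate 1 exceeded groin replicates 2 and 3. The normalized signal was 13.11 ± 0.41 in groin skin and 12.60 ± 0.60 in body side skin (log2, SD, n = 3 each). The log2 fold change was −0.52 (limma standard error 0.36 and adjusted p = 0.340). Its 95% interval ran from −1.40 to 0.37, so both no difference and a difference past 2-fold lie within it. The overlap came from body side replicate 1. Without that array the areas did not overlap and the log2 fold change was −0.86, which did not pass the test (adjusted p = 0.0547, limma). Among all tested probes, 20.8% had a lower fitted log2 fold change.

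**Figure D2:**
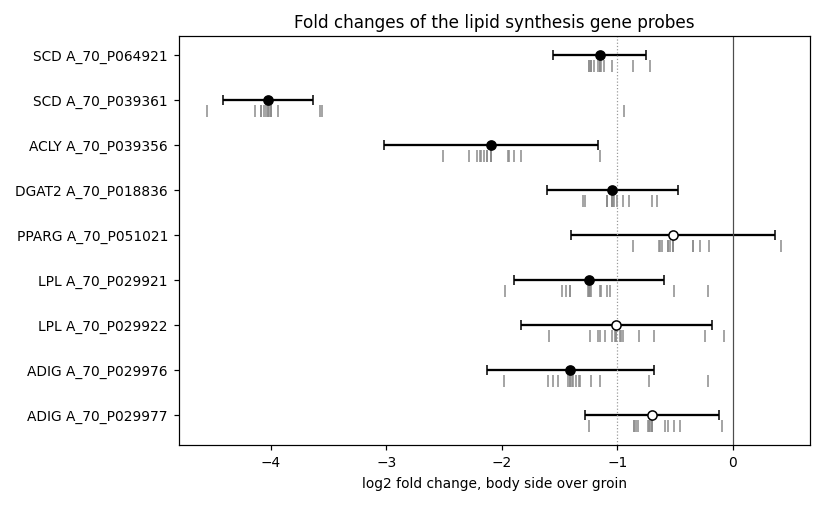
Log2 fold change of body side over groin for the 9 probes, with points for the fit on all 6 arrays, filled where called, and bars for the 95% interval. Grey ticks beneath each point give the fold change under each alternative that yields one, and the dotted line marks a 2-fold difference. For LPL, ADIG and SCD probe A_70_P039361 the points are fitted values on arrays without detection, not measured folds.

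Much of the scatter came from body side replicate 1. It lay above the mean of body side replicates 2 and 3 by 1.23 for ACLY, 1.04 for PPARG and 0.71 for DGAT2 (differences in normalized log2 signal). The corresponding differences were 0.29 for the SCD 3′ untranslated region probe and −0.07 for SCD probe A_70_P039361. On that array PPARG exceeded the groin mean by 0.18, whereas DGAT2 was 0.57 below it and ACLY 1.27 below it. Body side replicate 1 was therefore closer to groin skin than the other body side arrays for ACLY, DGAT2 and PPARG. It was no closer for SCD probe A_70_P039361.

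The number of calls depended on single arrays, both for these genes and for the array as a whole. Without body side replicate 1, 7 of the 9 probes were called, and 2959 probes in all against 1170 with every array. Without groin replicate 1, 2 of the 9 were called, both of them SCD probes, and 879 in all. Leaving out groin replicate 2, groin replicate 3, body side replicate 2 or body side replicate 3 left 1 of the 9 called each time, and 14, 12, 45 and 64 probes in all. SCD probe A_70_P039361 was that probe each time. All 9 log2 fold changes stayed negative whichever array was left out.

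**Figure D3:**
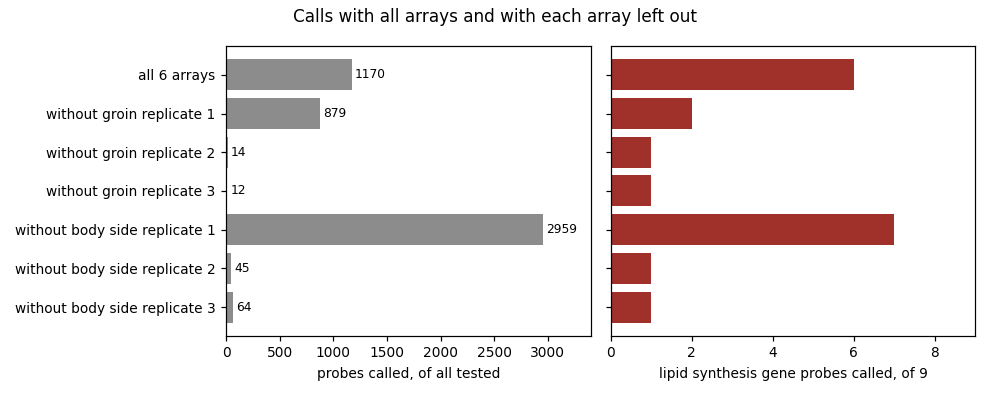
Number of probes called by limma with all 6 arrays and with each array left out, over all tested probes (left, grey bars) and among the 9 lipid synthesis gene probes (right, red bars). Counts run from 12 to 2959 over all probes and from 1 to 7 among the 9.

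Other genes of lipid metabolism were counted from 5 lists that together hold 129 genes, of which 21 had a probe named through RefSeq and 20 were tested. In these lists, 5 genes had a probe called lower in body side skin, namely SCD, ACLY, LPL, ADIG and LEPR, and 0 had a probe called higher (limma, against the 4.87% and 3.53% of all tested probes given above). Of these 5, 4 are among the 6 genes chosen. The called probes of SCD, LPL, ADIG and LEPR were detected on no body side array and passed the filter through groin arrays alone. The split of 5 to 0 therefore lends no support to a difference. With detection required on all 6 arrays, 1 lipid gene was called. A gene counts here when any of its probes was called, whereas the shares are of probes, so the 2 are unlike measures. Without body side replicate 1, 7 genes were called, 6 of them lower, with PLIN2 added, and CPT1A higher. Of the 15 tested genes that are not among the 6, 1 was called. Their 27 probes had a median log2 fold change of −0.01, and 14 of the 27 were negative. These counts cover only genes named through RefSeq. Of list genes named by the study alone, DGAT2 was called lower, and LEP and FABP9 each had a probe called higher. The called LEP and FABP9 probes had log2 fold changes of 1.27 and 1.55 (adjusted p = 0.0477 and 0.0365, limma). Such names come only from probes that the study had called.

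LEPR, the receptor for the adipocyte hormone leptin, was the called gene outside the 6. Its probe A_70_P056811 had signals of 41.7, 22.5 and 28.8 on the groin arrays and of 2.70, 2.997 and 2.74 on the body side arrays. All groin arrays and no body side array were detected, and groin skin was at least 1.44-fold higher (adjusted p = 0.0142 from limma). Of the other 3 LEPR probes, A_70_P039556 and A_70_P056812 were also called lower (adjusted p = 0.0262 and 0.0244, limma), and A_70_P039557 was not. None of the LEPR probes was detected on a body side array, so all passed the filter through groin arrays alone.

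In fatty acid synthesis and desaturation, 2 of 6 tested genes were called lower, SCD and ACLY. SCD5, a second desaturase gene, had log2 fold changes of 0.62 (limma standard error 0.19 and adjusted p = 0.0725) and 0.48 (standard error 0.20 and adjusted p = 0.134) on its 2 probes. The signals of its probe A_70_P039701 were 701, 669 and 747 in groin skin, against 627, 824 and 839 in body side skin, which overlap before normalization. Without body side replicate 1 both probes passed the adjusted p, at 0.79 and 0.65, but not the fold (adjusted p = 0.00891 and 0.0196, limma). ACACA, the enzyme that commits acetyl-CoA to fatty acids, had log2 fold changes of 0.94 (limma standard error 0.50 and adjusted p = 0.221) and 0.37, which became 0.31 and −0.20 after scaling to the 75th percentile. ME1, a source of the NADPH that the pathway uses, had a log2 fold change of 0.26 (limma standard error 0.31 and adjusted p = 0.576).

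In triglyceride and wax ester synthesis and storage, 0 of the 3 tested genes were called, and DGAT2 is not in that count because its name came from the study alone. DGAT1, an unrelated enzyme that carries out the same step as DGAT2, had a log2 fold change of 0.78 on probe A_70_P051046 (limma standard error 0.16 and adjusted p = 0.0342), under a 2-fold difference, and 0.11 on probe A_70_P051047 (adjusted p = 0.780). The second of these was −0.28 after scaling to the 75th percentile and −0.14 without body side replicate 1, so the direction of that probe depended on the scaling and on this array. Probe A_70_P051046 was at 0.50 after that scaling (adjusted p = 0.117, limma). PLIN5, another droplet protein, was detected on no body side array, and neither of its probes passed the test (adjusted p = 0.418 and 0.823, limma). PLIN2, which coats lipid droplets, had signals of 33661, 22437 and 24743 on the groin arrays and of 19543, 9539 and 9828 on the body side arrays. Its areas did not overlap on either probe, and the log2 fold changes of −1.10 and −0.97 did not pass the test (adjusted p = 0.0837 and 0.0813, limma). Without body side replicate 1 both PLIN2 probes were called, at −1.48 and −1.26 (adjusted p = 0.00784 and 0.0159, limma).

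Both pairs of enzymes with the same reaction were set against each other within each array, a comparison chosen after the values were seen. The log2 fold change of the SCD 3′ untranslated region probe minus the mean of the SCD5 probes was −1.70, and that of DGAT2 minus the mean of the DGAT1 probes was −1.49. The within-array differences did not overlap between areas for either pair. The SCD and DGAT2 probes used here are the 2 named only by the study's list of called probes. These differences are therefore descriptions only, and no p-value is given for them.

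In fatty acid uptake, transport and lipolysis, LPL was the 1 gene of 5 tested that was called. The uncalled genes with the smallest adjusted p were CPT1B, CPT1A and ABHD5. CPT1A and CPT1B carry fatty acids into mitochondria, and ABHD5 activates the lipase of the lipid droplet. Their largest log2 fold changes were 0.78 for CPT1A (adjusted p = 0.111), 0.56 for CPT1B (adjusted p = 0.0616) and 0.44 for ABHD5 (adjusted p = 0.119, all from limma). The other CPT1B probe was at −0.01. Scaling to the 75th percentile put ABHD5 at 0.79 (adjusted p = 0.0487, limma), under a 2-fold difference. The first CPT1B probe was at 0.15 after that scaling (adjusted p = 0.499, limma). It was at 0.64 without body side replicate 1 (adjusted p = 0.0191, limma), under a 2-fold difference. Without body side replicate 1 the CPT1A probe A_70_P051282 was called higher in body side skin, at 1.03 (adjusted p = 0.0222, limma), and after scaling to the 75th percentile it was at 0.30 (adjusted p = 0.352, limma). Among adipogenic regulators and adipokines, 2 of 5 tested genes were called lower, ADIG and LEPR, and PPARG was not called. PRKAA2, a catalytic subunit of the energy-sensing kinase AMPK, had a log2 fold change of 0.63 on the probe detected on all 6 arrays (adjusted p = 0.209, limma), which was 0.07 after scaling to the 75th percentile. The growth hormone receptor GHR had a log2 fold change of 0.54 (adjusted p = 0.212, limma). It was 0.83 without body side replicate 1 (adjusted p = 0.0153, limma, under a 2-fold difference) and 0.12 after scaling to the 75th percentile. The sterol list had 1 tested gene, SQLE, an enzyme of cholesterol synthesis, with a log2 fold change of −0.64 (adjusted p = 0.157, limma).

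**Figure D4:**
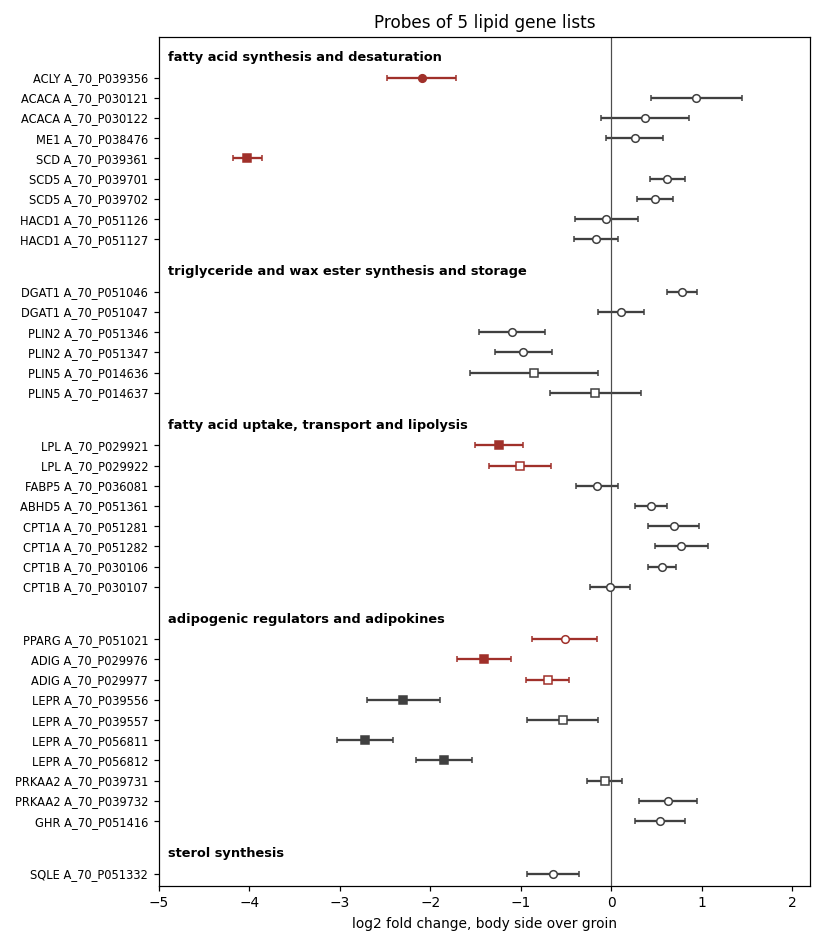
Log2 fold change of body side over groin, with its standard error from limma, for the tested probes of the 5 lipid gene lists. Red marks the genes SCD, ACLY, LPL, PPARG and ADIG, filled symbols were called, and squares were not detected on at least 1 array. The called probes drawn all lie left of zero, and grey points lie on both sides. Of these called probes, only that of ACLY was detected on body side arrays. DGAT2, LEP and FABP9, named by the study alone, are not drawn.

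Markers of the cells that make or hold fat were sparse on the array. Of 7 adipocyte markers, 2 had a probe named through RefSeq, ADIG and PLIN1. The PLIN1 spots, for the protein that coats the droplets of mature adipocytes, were marked as outliers by the scanner software on all but 1 array for each probe and were left out. With them kept, PLIN1 was detected on every array, with signals of 2052 to 2384 in groin skin and 2126 to 2256 in body side skin on probe A_70_P014631. Its log2 fold changes were then 0.20 (limma standard error 0.13 and adjusted p = 0.301) and −0.07 (standard error 0.20 and adjusted p = 0.833) on its 2 probes. LEP is also among the 7 adipocyte markers but was named by the study alone. Both of its probes were higher in body side skin, opposite to ADIG. Their log2 fold changes were 1.27 (adjusted p = 0.0477, limma), which was called, and 1.51 (adjusted p = 0.0665, limma), which was not. Both LEP probes were faint, as the ADIG probes were. Their normalized means were 4.19 and 3.17 in groin skin, against 5.47 and 4.68 in body side skin (log2).

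Of 8 sebocyte markers, only MC5R, a melanocortin receptor of the sebaceous gland, had such a probe. Its signals were 60.4, 40.1 and 39.8 in groin skin, against 23.7, 12.8 and 8.15 in body side skin, the last not detected. Its fitted log2 fold change of −0.91 did not pass the test (adjusted p = 0.126, limma), and its bound was 1.64-fold higher in groin skin. Only 1 sebocyte marker and 2 adipocyte markers were named through RefSeq. The share of either cell type in the 2 areas could not be measured, and its part in the differences above was not tested. Among 9 genes of the hair shaft and inner root sheath, 5 were tested. Of these, 1, the hair keratin K38, was called, against 3.53% of all tested probes called higher. Its 2 probes had log2 fold changes of 3.06 and 2.14, higher in body side skin. The share is of probes and the count is of genes with any called probe, so they are unlike measures. The uncalled genes were KRT25 (0.11 and −0.04), KRT27 (0.14), PADI3 (0.87 and 0.83) and KRT35 (1.17 and 1.46, some body side spots left out as outliers). KRT25 and KRT27 were bright in both areas. No basal keratinocyte or endothelial marker had a probe named through RefSeq. Both probes of KDR, an endothelial receptor named by the study alone, were called lower in body side skin, from 6.69 ± 0.16 to 4.46 ± 1.17 and from 5.36 ± 0.22 to 2.33 ± 1.36 (normalized log2, SD, n = 3 each). The first was well above background on 1 of 3 body side arrays and the second on none, so both have only a bound. These bounds were 4.32-fold and 2.61-fold higher in groin skin.

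For the 4 probes detected on all 6 arrays, the named probes with the most similar pattern were sought by Pearson correlation over the 6 arrays. ACLY was closest to ARFIP2 (r = 0.997) and DBP (r = 0.996), DGAT2 to ATP1B1 (0.995) and FHL1 (0.991). PPARG was closest to IGFBP1 (0.995) and IRF1 (0.993), and the SCD 3′ untranslated region probe to LOC443295 (0.991) and POMC (0.990). These are descriptions over 6 arrays from 3 animals, the nearest among 502 candidates, in which the difference between areas itself adds to r. The 4 probes had no nearest gene in common.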

How the data were processed

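The authors deposited, for each array, the spot output of Agilent Feature Extraction 10.5.1.1 (per the submitters' processing notes). The deposited intensity of each spot is that software's processed signal, made by the authors' scan after background correction, beside its detection and outlier marks. They also deposited a table of normalized log2 values, which was used as an alternative. Their methods state quantile normalization and a filter of detection on at least 1 of 6 arrays. From the intensities, control and outlier spots were dropped, spots of the same probe were averaged as log2 values, and quantile normalization followed. Body side was compared with groin in limma 3.58.1 (R 4.3.3), with Benjamini-Hochberg adjustment over 13929 probes.

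A probe not detected on every array of the area with the lower mean has a bound instead of a fold. The brighter area's mean is set against the dim area's mean of, per array, its own value or the lowest detected value, whichever was higher, all normalized log2. A bound compares means and carries no interval. Genes were named by matching probe accessions to RefSeq names of assembly ARS-UI_Ramb_v3.0, which named 734 probes, or from the study's annotation of called probes. No coordinates or sequences are given, since the build of the probe designs is not given in the sources used here.

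The text names every probe of the 6 genes, called probes of the lists, up to 3 uncalled genes of each list with the smallest adjusted p, and the 2 most similar probes. The SCD and DGAT pairs, PLIN1, the cell type markers, LEP and FABP9 fall outside that rule. The genes and lists were chosen with earlier results of these data known. The headers place all arrays on one slide, in a grid of 3 columns by 2 rows, whereas the methods state one slide per RNA sample. This difference was not resolved. The fit was tested on simulated data first. The 18 alternatives varied normalization, background, floor, filters, weights, blocks, fold threshold and each array.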

Additional observations from a re-analysis of the deposited data

How the results depend on the processing

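Against 1170 probes called in all, 6 of the 9 probes, 5 lipid genes and a median log2 fold change of −1.15, normexp background correction with an offset of 50, which shrinks differences of faint probes by construction, gave 444, 3, 1 and −0.52. The filter for detection on all 6 arrays left 4 of the 9 probes to test and gave 3 calls among them and 1 lipid gene. With the replicate number as a block the counts were 8, 1 and 1, with slide row as a block 52, 1 and 2, and with slide column as a block 0, 0 and 0 (limma, 1868 probes with an unadjusted p under 0.05) with a median of −0.65. Area was nearly confounded with column, since columns 1 and 3 each hold 1 area, so that fit rests on groin replicate 3 against body side replicate 1. Under the column block PPARG turned to 0.42. Array weights gave 3367 probes in all and no fold threshold 2071. Scaling to the 75th percentile gave a median of −1.59 and 4 of the 9 calls, and 79.6% of called probes were then lower in body side skin against 58.0%. That scaling put the median of all probes at −0.08 instead of 0.09. With each array left out, counts ran from 12 to 2959 in all, from 1 to 7 of the 9, and from 1 to 7 lipid genes. SCD probe A_70_P039361 lost its call with normexp (−0.94, under a 2-fold difference) and the column block (adjusted p = 0.108, limma), and its bound was 1.69-fold with normexp. Same-numbered arrays did not clearly deviate together (correlations of 0.133, 0.073 and 0.057), so the numbers were not taken to pair them. With that block the log2 fold changes were the same as without it and all 9 probes had an unadjusted p under 0.05. The adjusted p (limma) was 0.0425 for SCD probe A_70_P039361, 0.0541 for the other SCD probe, 0.0532 for ACLY and ADIG, 0.0716 for LPL and 0.078 for DGAT2. The cause of these changes was not tested. A body side signal of LPL, ADIG or SCD probe A_70_P039361 is limited by background.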

Other observations

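Fat-related genes named by the study's annotation alone, and therefore partly selected on this comparison, included LEP and FABP9. LEP, the adipocyte hormone leptin, was called higher in body side skin on probe A_70_P017127, with a log2 fold change of 1.27 (limma standard error 0.32 and adjusted p = 0.0477). Its other probe, A_70_P026616, did not pass the test at 1.51 (limma standard error 0.44 and adjusted p = 0.0665). Both LEP probes were detected on all 6 arrays, and their areas did not overlap. Their signals were faint, with normalized groin means of 4.19 and 3.17 (log2, SD 0.54 and 0.91). FABP9, a fatty acid binding protein, was called higher at 1.55 (limma standard error 0.30 and adjusted p = 0.0365). It was detected on all groin arrays and on both body side arrays with a value, since the spot on body side replicate 2 was marked as an outlier and left out.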
